A study of Mus musculus with 8 samples.

Results

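Levels of 10 genes of the platelet and its precursor, the megakaryocyte, were followed across 8 libraries of mouse bone marrow cells: Pf4, Ppbp, Vwf, Selp, Thbs1, Tubb1, Alox12, Treml1, F2rl2 and Rab27b. They were taken by symbol from the deposited expression table, as 10 of its 23293 mouse genes. All 10 averaged 1 FPKM or more across the libraries, which placed them among the 10854 genes tested. Some of them passed this filter only through the control libraries, as stated below. FPKM is a fragment level scaled by transcript length and by library size. Log2 fold changes are given on the log2(FPKM + 1) scale, which understates the change of genes near 1 FPKM, with limma's standard error (SE) and Benjamini-Hochberg adjusted p over all genes tested.

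The study measured messenger RNA in c-Kit-positive cells, the fraction of marrow rich in stem and progenitor cells, which were bound from the whole marrow of individual mice with magnetic beads. Its question, as the title gives it, concerned the dose of cohesin in normal and malignant blood formation: Smc3 encodes a core subunit of the cohesin ring, and an internal tandem duplication of Flt3 (Flt3-ITD) is a lesion of acute myeloid leukaemia. There were 4 groups of 2 mice. The first carried Flt3-ITD with an Smc3 deletion, named fl/del in the genotype field and het in the sample titles, and is called Smc3 fl/del Flt3-ITD here. The second was labelled Flt3-ITD, the third Smc3 del/+, and the controls were Smc3 fl/+ with a floxed but undeleted allele. All mice had received PIpC 4 weeks earlier. The first 3 groups carried Mx1-cre, a recombinase under an interferon-inducible promoter that PIpC switches on in blood cells and in other tissues, and the controls lacked it. Sources used here give no mouse ages.

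Megakaryocytes load secretory granules with proteins, extend long microtubule-filled processes, and shed platelets from their tips. Alpha granules hold chemokines and adhesive proteins, which are released when thrombin or collagen activates the platelet; P-selectin and TLT-1, held in the granule membrane, then appear at the surface. GATA1 and ETS-family factors such as FLI1 are the classic regulators of megakaryocyte genes, and their joint presence at a promoter is a textbook feature of the class.

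The 250 bases before the start site of 4 members are shown because those genes carry most of the contrasts described here: the chemokine neighbours Pf4 and Ppbp, whose levels differed by unequal amounts, the tubulin gene Tubb1, which was near 0 in all mutant libraries, and F2rl2, the member whose 4 groups did not overlap. They come from RefSeq on GRCm38.p6, all on the plus strand, 5′ to 3′. Capitals mark the core letters bound by GATA factors, searched as AGATAA and, with another first base, as TGATAA. They also mark the ETS core, searched as AGGAAG and, with another first base, as CGGAAG. Both strands were searched, and the searched motifs did not overlap in these windows.
Pf4, chr5:90772185-90772434: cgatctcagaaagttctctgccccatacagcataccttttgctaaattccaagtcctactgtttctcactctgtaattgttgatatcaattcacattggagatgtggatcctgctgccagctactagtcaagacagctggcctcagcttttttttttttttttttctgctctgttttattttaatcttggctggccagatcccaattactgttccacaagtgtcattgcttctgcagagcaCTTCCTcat
Ppbp, chr5:90768268-90768517: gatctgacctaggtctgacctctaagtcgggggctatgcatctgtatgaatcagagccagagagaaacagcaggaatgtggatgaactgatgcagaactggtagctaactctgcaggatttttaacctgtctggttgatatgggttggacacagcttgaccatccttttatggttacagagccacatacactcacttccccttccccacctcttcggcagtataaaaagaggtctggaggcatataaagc
Tubb1, chr2:174450345-174450594: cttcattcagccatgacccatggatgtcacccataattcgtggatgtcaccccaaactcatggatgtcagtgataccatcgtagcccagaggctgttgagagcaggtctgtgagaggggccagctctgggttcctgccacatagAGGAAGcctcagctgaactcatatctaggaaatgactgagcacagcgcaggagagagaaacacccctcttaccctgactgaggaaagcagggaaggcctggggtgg
F2rl2, chr13:95696670-95696919: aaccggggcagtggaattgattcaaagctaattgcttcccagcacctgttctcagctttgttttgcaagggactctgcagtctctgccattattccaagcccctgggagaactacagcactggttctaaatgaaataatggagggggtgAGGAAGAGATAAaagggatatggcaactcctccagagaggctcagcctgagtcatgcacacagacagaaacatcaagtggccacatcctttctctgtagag
The windows searched ran from 250 bases before to 50 after the start, and 7 members had an entry in the promoter table. F2rl2 held AGGAAG at -101 directly followed by AGATAA at -95, counted from the start site to the leftmost base. Pf4 held AGGAAG on the minus strand at -9, read as CTTCCT above, and AGATAA at 37, past the stretch printed. Tubb1 held AGGAAG at -106, and Selp held it at 20 and, on the minus strand, at -64. None of these letters occurred in the windows of Ppbp, Alox12 and Treml1. A GATA match stood in 2 of the 7 members and in 18.6% of 32851 RefSeq promoters, an ETS match in 4 of the 7 and in 46.5%, and both in 2 of the 7 (Pf4 and F2rl2) and in 7.70%. Such matches describe the letters only.

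Several properties of the libraries bear on what follows. Replicate libraries correlated across genes at r = 0.932 in Smc3 fl/del Flt3-ITD and at 0.975 to 0.981 in the other groups, so the first group was the most variable. Xist, the transcript of the inactive X chromosome, stood at 500 to 657 FPKM in the Smc3 fl/del Flt3-ITD and control libraries and at no more than 0.936 FPKM in the Flt3-ITD and Smc3 del/+ libraries. Comparisons of Flt3-ITD or Smc3 del/+ with controls, and of Smc3 fl/del Flt3-ITD with Flt3-ITD or with Smc3 del/+, therefore also compare libraries of unlike Xist level, and genotype and sex cannot be told apart in them, nor in the interaction of both genotypes; presence of Mx1-cre likewise goes with every comparison against controls. Smc3 itself averaged 119 ± 23.3 FPKM in Smc3 fl/del Flt3-ITD, 92.3 ± 3.35 in Flt3-ITD, 134 ± 1.86 in Smc3 del/+ and 115 ± 4.64 in controls (SD, n = 2 each), so its level was not lower in the libraries labelled as deleted, and those names are used as labels. Kit ranged from 37.4 to 60.1 FPKM. Read depth is unknown for these values. The comparisons with controls share the same 2 control libraries.

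Transcripts that define the megakaryocyte lineage were detected in every library. The summed level of 7 surface genes that define it (Itga2b, Gp9, Gp1ba, Gp1bb, Gp5, Gp6 and Clec1b) was 8.13 and 7.06 FPKM in Smc3 fl/del Flt3-ITD libraries, 13.4 and 11.4 FPKM in Flt3-ITD, 19.9 and 21.6 FPKM in Smc3 del/+ and 50.4 and 48.1 FPKM in controls. Every mutant library thus had a lower sum than either control. This did not hold for each gene. Gp1bb stood at 3.14 FPKM in Flt3-ITD replicate 1 and at 2.13 and 3.08 FPKM in controls. The collagen receptor gene Gp6 was listed at 0 in 4 of the 6 mutant libraries. In bulk RNA, fewer cells of a type and less RNA per cell cannot be told apart.

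The granule and cytoskeleton genes were highest in controls. Of the 80 member values, 25 were under 1 FPKM and 0 of those were in controls, and 4 were listed at 0. Tubb1 averaged 0.139, 0.312 and 0.441 FPKM in Smc3 fl/del Flt3-ITD, Flt3-ITD and Smc3 del/+. Alox12 averaged 0.436, 0.172 and 0.472 FPKM in the same order. These genes passed the filter on the mean only through the controls, and so did Treml1. Their falls against controls, and their place in the counts, are thus in part set by that filter. Against controls, 8 of the 10 fell in Flt3-ITD marrow and 7 in Smc3 fl/del Flt3-ITD marrow (background shares stand with each comparison), and all 10 had lower values in Smc3 del/+ than in controls without passing the test there. The plot of member levels shows each library.

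**Figure D1:**
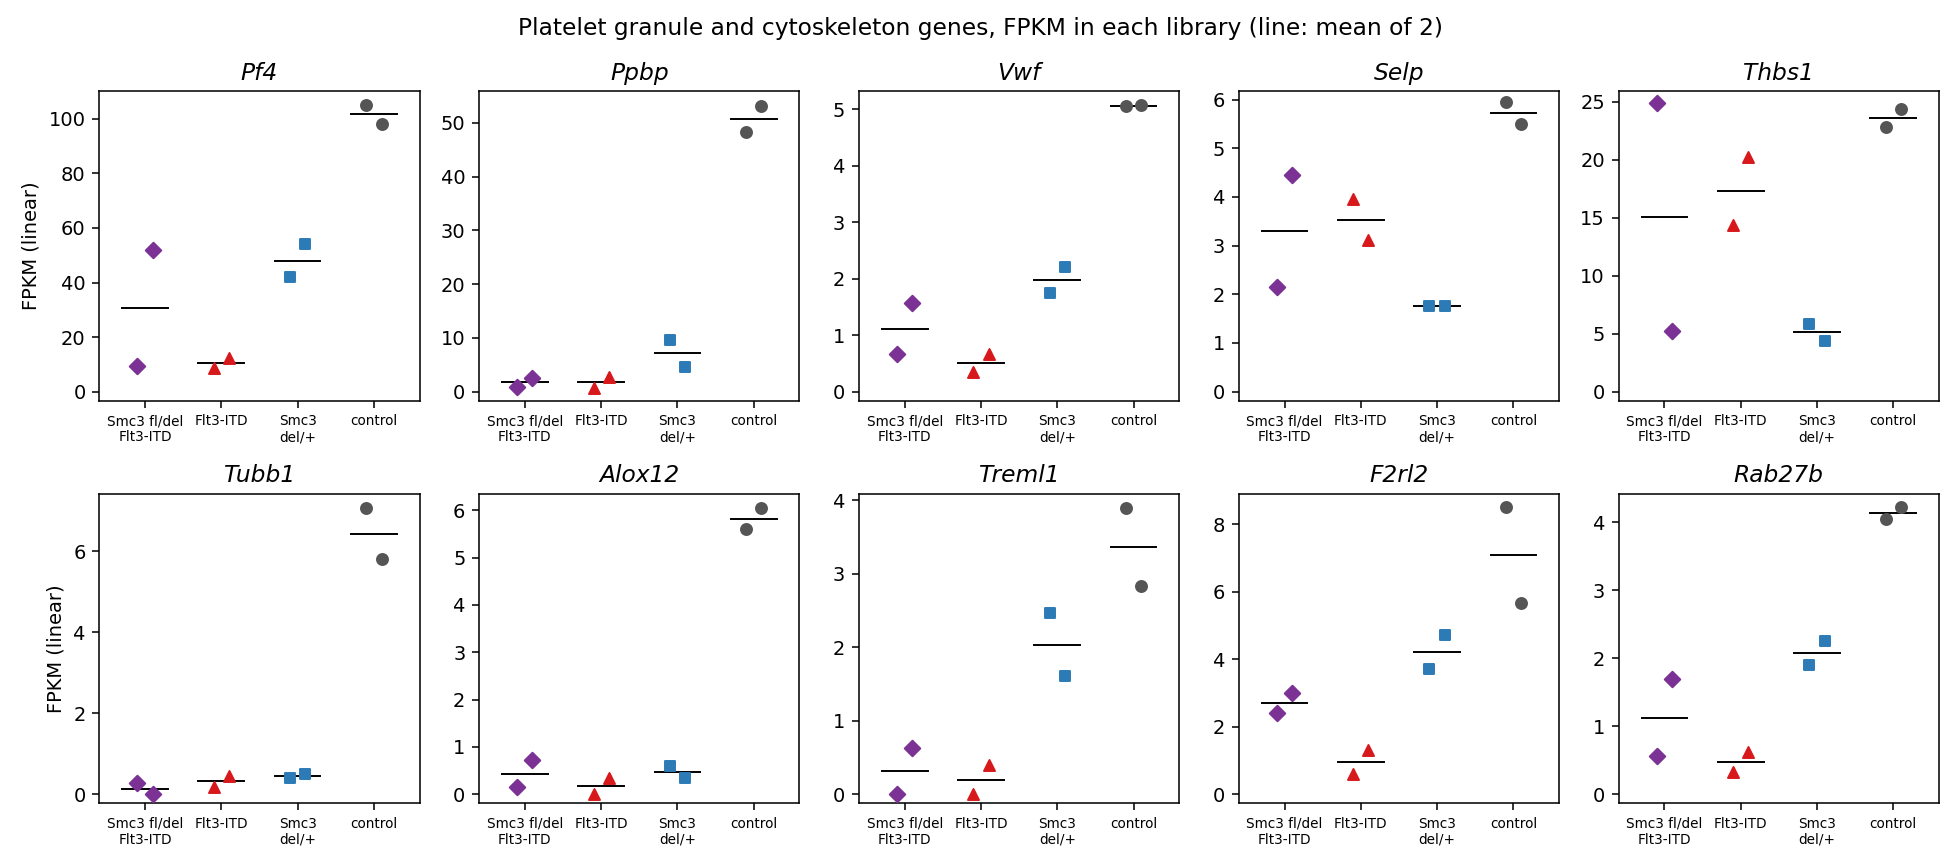
Level of each of the 10 genes (FPKM, linear axis from 0) in the 8 libraries, grouped as Smc3 fl/del Flt3-ITD, Flt3-ITD, Smc3 del/+ and control, 1 point per library and a line at each group's mean. The control points lie above all Flt3-ITD and Smc3 del/+ points for every gene, and Thbs1 is the gene in which an Smc3 fl/del Flt3-ITD library reaches the controls.

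Pf4 encodes platelet factor 4, a chemokine of the alpha granule that binds heparin, and was the most abundant member in controls. Pf4 stood at 9.54 and 52.0 FPKM in Smc3 fl/del Flt3-ITD libraries, 8.73 and 12.4 FPKM in Flt3-ITD, 42.0 and 54.1 FPKM in Smc3 del/+ and 105 and 98.2 FPKM in controls. Controls were above all others, and one Smc3 fl/del Flt3-ITD library sat with Flt3-ITD while its partner sat with Smc3 del/+. Pf4 fell in Flt3-ITD against controls (log2 fold change -3.17 ± 0.628 SE, adjusted p = 0.0160); its values were -2.12 ± 0.628 (adjusted p = 0.0708) for Smc3 fl/del Flt3-ITD and -1.08 ± 0.628 (adjusted p = 1) for Smc3 del/+. The Flt3-ITD call was lost when either replicate of either group was left out, with adjusted p up to 0.125.

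Ppbp encodes pro-platelet basic protein, the precursor of the neutrophil-attracting chemokine NAP-2, and lies next to Pf4. Ppbp stood at 0.932 and 2.51 FPKM in Smc3 fl/del Flt3-ITD libraries, 0.771 and 2.81 FPKM in Flt3-ITD, 9.62 and 4.62 FPKM in Smc3 del/+ and 48.4 and 53.2 FPKM in controls. The groups carrying Flt3-ITD overlapped each other, Smc3 del/+ lay between, and controls were far above. Mean Ppbp was 28.4-fold lower in Flt3-ITD than in controls and 7.13-fold lower in Smc3 del/+ than in controls. On the log2 scale Ppbp fell by 4.31 ± 0.460 in Smc3 fl/del Flt3-ITD (adjusted p = 0.00351) and by 4.32 ± 0.460 in Flt3-ITD (adjusted p = 0.00209); the difference for Smc3 del/+ was -2.74 ± 0.460 (adjusted p = 0.334). The calls in Flt3-ITD and in Smc3 fl/del Flt3-ITD held under all 14 and all 15 alternatives run.

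Vwf encodes von Willebrand factor, which tethers platelets to exposed collagen and is made by megakaryocytes and endothelial cells. Vwf stood at 0.662 and 1.56 FPKM in Smc3 fl/del Flt3-ITD libraries, 0.341 and 0.670 FPKM in Flt3-ITD, 1.75 and 2.21 FPKM in Smc3 del/+ and 5.05 and 5.08 FPKM in controls. The Smc3 del/+ values lay above those of both Flt3-ITD groups and below the controls. Vwf fell in Smc3 fl/del Flt3-ITD (log2 fold change -1.56 ± 0.286, adjusted p = 0.0165) and in Flt3-ITD (-2.02 ± 0.286, adjusted p = 0.00500), and differed by -1.03 ± 0.286 in Smc3 del/+ (adjusted p = 0.764). The endothelial genes Cdh5, Kdr, Tek and Robo4 never exceeded 0.839 FPKM in a library, but other genes of the list were higher. Plvap stood at 0.303 and 0.247 FPKM in Smc3 fl/del Flt3-ITD and 0.854 and 0.187 FPKM in Flt3-ITD. It stood at 1.42 and 1.15 FPKM in Smc3 del/+ and 2.35 and 1.94 FPKM in controls. In Flt3-ITD against controls, Plvap fell (-1.08, adjusted p = 0.0453) and Ly6c1 rose (0.96, adjusted p = 0.00519). Not called were Egfl7 (-1.11), Emcn (-0.56), Tie1 (0.35) and Pecam1 (0.61). The whole list of 10 endothelial genes, which also holds Ly6c1 of many marrow cells, summed to 310 and 273 FPKM in Smc3 fl/del Flt3-ITD, 385 and 441 FPKM in Flt3-ITD, 204 and 203 FPKM in Smc3 del/+ and 236 and 210 FPKM in controls. Ly6c1 made up most of this sum, with 281 and 249 FPKM in Smc3 fl/del Flt3-ITD, 361 and 402 FPKM in Flt3-ITD, 180.3 and 182 FPKM in Smc3 del/+ and 208 and 183 FPKM in controls. The part of endothelial cells in the Vwf level was not tested.

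Thbs1, which encodes thrombospondin-1, an adhesive alpha-granule protein also made by monocytes and stroma, had another order of groups than most members. Thbs1 stood at 24.9 and 5.24 FPKM in Smc3 fl/del Flt3-ITD libraries, 14.4 and 20.2 FPKM in Flt3-ITD, 5.83 and 4.38 FPKM in Smc3 del/+ and 22.8 and 24.4 FPKM in controls. Smc3 del/+ was low in both mice, Flt3-ITD was near the controls, and the pair of Smc3 fl/del Flt3-ITD libraries spanned nearly the whole range. None of its differences from controls passed: -0.95 ± 0.564 for Smc3 fl/del Flt3-ITD (adjusted p = 0.312), -0.44 ± 0.564 for Flt3-ITD (adjusted p = 0.631) and -2.02 ± 0.564 for Smc3 del/+ (adjusted p = 0.764). Leaving out Smc3 fl/del Flt3-ITD replicate 2 turned the first to 0.07. All 7 monocyte markers averaged at least 1 FPKM in every group, and they summed to 534 and 385 FPKM in Smc3 fl/del Flt3-ITD, 304 and 422 FPKM in Flt3-ITD, 144 and 174 FPKM in Smc3 del/+ and 171 and 195 FPKM in controls. Their part in the Thbs1 level was not tested.

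Selp encodes P-selectin, the granule-membrane adhesion receptor that captures leukocytes. Selp stood at 2.15 and 4.46 FPKM in Smc3 fl/del Flt3-ITD libraries, 3.95 and 3.12 FPKM in Flt3-ITD, 1.75 and 1.76 FPKM in Smc3 del/+ and 5.96 and 5.50 FPKM in controls. As for Thbs1, the Smc3 del/+ mean was the lowest, and here both of its libraries lay below every other library. Its differences from controls were -0.70 ± 0.286 (adjusted p = 0.157), -0.57 ± 0.286 (adjusted p = 0.203) and -1.29 ± 0.286 (adjusted p = 0.735) for Smc3 fl/del Flt3-ITD, Flt3-ITD and Smc3 del/+ in that order, and none passed.

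Rab27b encodes a small GTPase that docks dense granules for secretion. Rab27b stood at 0.554 and 1.70 FPKM in Smc3 fl/del Flt3-ITD libraries, 0.328 and 0.615 FPKM in Flt3-ITD, 1.90 and 2.25 FPKM in Smc3 del/+ and 4.05 and 4.22 FPKM in controls. The order of its groups was the same as that of Vwf. Rab27b fell in Smc3 fl/del Flt3-ITD (-1.33 ± 0.311, adjusted p = 0.0349) and in Flt3-ITD (-1.81 ± 0.311, adjusted p = 0.00975), and the value for Smc3 del/+ was -0.74 ± 0.311 (adjusted p = 1). The call of Rab27b in Smc3 fl/del Flt3-ITD held in 5 of 15 alternatives, with adjusted p up to 0.184.

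Tubb1 encodes beta-1 tubulin, the platelet-specific tubulin of the marginal microtubule band. Tubb1 stood at 0.278 and 0 FPKM in Smc3 fl/del Flt3-ITD libraries, 0.184 and 0.440 FPKM in Flt3-ITD, 0.388 and 0.494 FPKM in Smc3 del/+ and 7.06 and 5.80 FPKM in controls. All 6 mutant libraries were under 0.5 FPKM, with the Smc3 del/+ values among them. Tubb1 fell in Smc3 fl/del Flt3-ITD (-2.71 ± 0.275, adjusted p = 0.00316) and in Flt3-ITD (-2.50 ± 0.275, adjusted p = 0.00230). For Smc3 del/+ it gave -2.36 ± 0.275 with an adjusted p of 0.0947, the lowest of any member there.

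Alox12 encodes platelet 12-lipoxygenase, which turns arachidonic acid into 12-HETE. Alox12 stood at 0.142 and 0.730 FPKM in Smc3 fl/del Flt3-ITD libraries, 0 and 0.344 FPKM in Flt3-ITD, 0.595 and 0.348 FPKM in Smc3 del/+ and 5.60 and 6.05 FPKM in controls. As with Tubb1, every mutant library was under 1 FPKM. Alox12 fell in Smc3 fl/del Flt3-ITD (-2.28 ± 0.311, adjusted p = 0.00729) and in Flt3-ITD (-2.56 ± 0.311, adjusted p = 0.00306), with -2.22 ± 0.311 (adjusted p = 0.175) in Smc3 del/+.

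Treml1 encodes TLT-1, a receptor of the alpha-granule membrane found on platelets and megakaryocytes. Treml1 stood at 0 and 0.634 FPKM in Smc3 fl/del Flt3-ITD libraries, 0 and 0.393 FPKM in Flt3-ITD, 2.47 and 1.60 FPKM in Smc3 del/+ and 3.89 and 2.83 FPKM in controls. The Flt3-ITD groups were near 0 while Smc3 del/+ lay just below the controls. Treml1 fell in Smc3 fl/del Flt3-ITD (-1.76 ± 0.350, adjusted p = 0.0217) and in Flt3-ITD (-1.88 ± 0.350, adjusted p = 0.0130), and gave -0.53 ± 0.350 (adjusted p = 1) in Smc3 del/+.

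F2rl2 encodes PAR3, which in mouse platelets helps thrombin to cleave PAR4. F2rl2 stood at 2.40 and 2.99 FPKM in Smc3 fl/del Flt3-ITD libraries, 0.609 and 1.30 FPKM in Flt3-ITD, 3.70 and 4.72 FPKM in Smc3 del/+ and 8.50 and 5.67 FPKM in controls. Its 4 groups did not overlap at all, in the order Flt3-ITD, Smc3 fl/del Flt3-ITD, Smc3 del/+ and control. F2rl2 fell in Smc3 fl/del Flt3-ITD (-1.11 ± 0.281, adjusted p = 0.0434) and in Flt3-ITD (-2.05 ± 0.281, adjusted p = 0.00468), and gave -0.62 ± 0.281 (adjusted p = 1) in Smc3 del/+. The first of these calls held in 2 of 15 alternatives, with adjusted p from 0.00151 to 0.272.

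**Figure D2:**
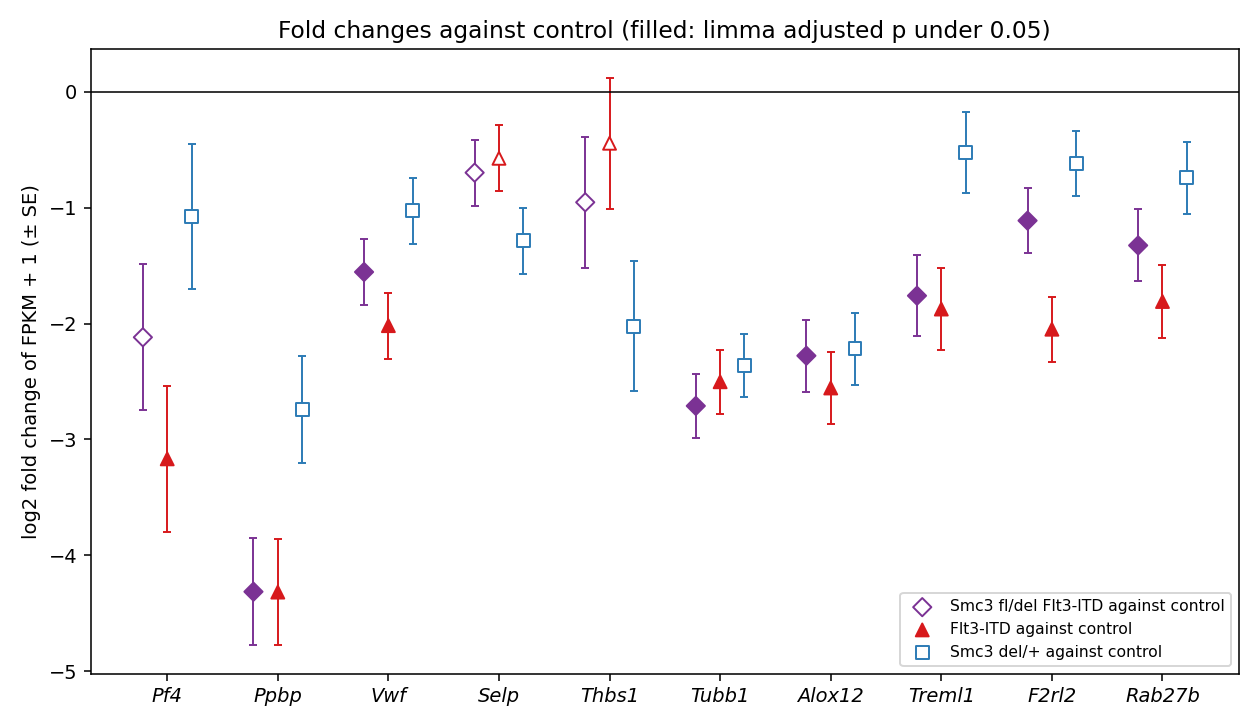
Log2 fold change of each gene against control on the log2(FPKM + 1) scale, with limma's SE as bars and filled symbols for an adjusted p under 0.05, for Smc3 fl/del Flt3-ITD, Flt3-ITD and Smc3 del/+. Ppbp lies furthest below 0 in both Flt3-ITD groups (-4.31 and -4.32), and Thbs1 and Selp are nearest 0 in Flt3-ITD (-0.44 and -0.57).

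In Flt3-ITD against controls, the share of members that fell was above that of all genes. The members were chosen with earlier results of these data known, so this excess is a description and no test of the set. The same holds for the comparisons and lists that follow. Of the 10, 8 were called lower (adjusted p under 0.05), where 9.5% of the 10854 tested genes were, and 0 were called higher, where 8.51% were. All 10 had both Flt3-ITD values below both controls, as had 35.2% of tested genes. Their median log2 fold change was -2.03, against -0.01 for all genes. Ppbp, Tubb1 and Alox12 were called in all 14 alternatives, F2rl2 in 13, Vwf in 12, Rab27b in 11 and Pf4 and Treml1 in 10 each. Leaving out control replicate 1, control replicate 2 or Flt3-ITD replicate 1 left 3, 4 and 5 calls, where 1.78%, 2.25% and 2.89% of all genes were called lower. In the table that the authors normalized, 9 members were called lower, and so were 43.1% of all genes. The libraries compared also differed in erythroid transcripts: the 11 erythroid genes, of which 7, 5, 10 and 9 averaged at least 1 FPKM in the groups as ordered here, summed to 42.6 and 100.5 FPKM in Smc3 fl/del Flt3-ITD, 22.3 and 8.22 FPKM in Flt3-ITD, 332 and 363 FPKM in Smc3 del/+ and 414 and 410 FPKM in controls. Their part in the members' levels was not tested.

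In Smc3 fl/del Flt3-ITD against controls, where Xist was high on both sides, 7 of 10 members were called lower and 6.38% of all genes were. Values did not overlap for 9, Thbs1 being the exception, against 26.8% of all genes. The median over the members was -1.66 and over all genes -0.01. This count rested on the controls and on the pooled spread: it was 2 without either control library (0.562% of all genes lower), 4 without either Smc3 del/+ library (2.88%), and 1 when the 2 groups were fitted alone (0.221%). Ppbp was called in all 15 alternatives, Tubb1 in 14, Vwf and Alox12 in 12, Treml1 in 9, Rab27b in 5 and F2rl2 in 2. In the table that the authors normalized all 10 were called lower, and so were 53.4% of all genes.

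In Smc3 del/+ against controls 0 of 10 members passed with limma, in a comparison where 0.00921% of genes, a single gene, were called lower. At an unadjusted p under 0.05, 7 members were lower (all but Pf4, Treml1 and F2rl2), where 2.25% of all genes were. All 10 had both values below both controls, against 23.2% of all genes, and their median was -1.18 against 0.00. With limma, 3 members passed when either Smc3 fl/del Flt3-ITD library was left out of the pooled spread (Thbs1, Tubb1 and Alox12) and 4 when the 2 groups were fitted alone (Ppbp also); 0.111% and 0.203% of all genes were called in those fits. In the table that the authors normalized, Ppbp, Tubb1 and Alox12 passed, with 0.111% of all genes.

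Adding the Smc3 deletion to Flt3-ITD gave no called member (0 of 10 higher, where 0.24% of all genes were called higher and 0.0461% lower). F2rl2 was the member whose values did not overlap, higher in Smc3 fl/del Flt3-ITD than in Flt3-ITD, as for 17.1% of all genes; its log2 fold change was 0.94 ± 0.281 (adjusted p = 0.311), and it alone had an unadjusted p under 0.05 (5.99% of all genes in that direction). Vwf gave 0.46 ± 0.286 (adjusted p = 0.543) and Rab27b 0.48 ± 0.311 (adjusted p = 0.558). Without Smc3 fl/del Flt3-ITD replicate 1, 4 members passed, Pf4, F2rl2 and Rab27b higher and Thbs1 lower, but so did 29.9% of all genes. Against Smc3 del/+, Smc3 fl/del Flt3-ITD likewise had 0 of 10 members called, where 2.89% of all genes were called lower and 2.55% higher; Ppbp and Treml1 were lower at an unadjusted p under 0.05, as were 11.8% of all genes. Without Smc3 fl/del Flt3-ITD replicate 2, 5 passed, 4 lower and 1 higher, and so did 25.1% of all genes.

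Flt3-ITD and Smc3 del/+ libraries share a low Xist level and carry Mx1-cre, so they were set against each other, a comparison added after the values were seen. F2rl2 fell in Flt3-ITD against Smc3 del/+ (-1.43 ± 0.281, adjusted p = 0.0246) as the 1 member of 10 called, where 5.34% of all genes were called lower. Of the members, 7 had lower, non-overlapping values in Flt3-ITD (34.7% of all genes), and 2, Selp and Thbs1, had higher ones (32.8%). Selp gave 0.71 ± 0.286 (adjusted p = 0.153) and Thbs1 1.58 ± 0.564 (adjusted p = 0.118), while Tubb1 and Alox12 gave -0.14 and -0.34 (adjusted p = 0.782 and 0.526). The count was 8, with Selp and Thbs1 higher, when Smc3 fl/del Flt3-ITD replicate 1 or 2 was left out or the 2 groups were fitted alone, fits in which 31.2%, 31.4% and 26.1% of all genes were called. The F2rl2 call was lost without each of the other 6 libraries in turn, and no other member gained one. In the table that the authors normalized 6 members were called, and so were 11% of all genes.

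The interaction term asks whether the effect of the Smc3 deletion differed with and without Flt3-ITD. It sets the Smc3 fl/del Flt3-ITD and control libraries, where Xist was high, against the Flt3-ITD and Smc3 del/+ libraries, where Xist was low, so the interaction and a difference of sex cannot be told apart. It was positive for all 10 members and passed for 0 of 10, where 0.0184% of all genes were called higher. At an unadjusted p under 0.05, 8 were positive, as were 5.2% of all genes. The log2 fold change with the Smc3 deletion was negative for all 10 members without Flt3-ITD and for 3 of 10 with it. Alox12 gave 2.50 ± 0.440 (adjusted p = 0.167) and Tubb1 2.15 ± 0.388 (adjusted p = 0.172), and both were under 1 FPKM in all 6 mutant libraries. Vwf, Treml1, F2rl2 and Rab27b also averaged under 1 FPKM in Flt3-ITD, where a further fall could hardly show. The count was 8 without Smc3 fl/del Flt3-ITD replicate 1, where 18.8% of all genes were called, and 2 without replicate 2, where 0.903% were. Averaged over the Smc3 genotypes, a contrast with each Xist level on both sides, 7 of 10 members were lower with Flt3-ITD, where 12.8% of all genes were called lower: Treml1 (-1.55, adjusted p = 0.00576), Ppbp (-2.94, adjusted p = 0.00838), Rab27b, Vwf, F2rl2, Pf4 and Tubb1. Selp gave 0.01 and Thbs1 0.31. The 7 became 2 without either control or either Flt3-ITD library, where 6.41% to 8.01% of all genes were called lower. They became 4 without Smc3 del/+ replicate 2, where 7.62% were. Averaged over the Flt3 genotypes, the Smc3 deletion called 0 of 10 members and 0 of all genes with limma; 4 members (Ppbp, Selp, Thbs1 and Tubb1) were lower at an unadjusted p under 0.05, where 2.73% of all genes were.

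Within a library, the members did not keep a fixed proportion to each other. The ratio of Pf4 to Ppbp FPKM was 10.2 and 20.8 in Smc3 fl/del Flt3-ITD, 11.3 and 4.42 in Flt3-ITD, 4.37 and 11.7 in Smc3 del/+ and 2.17 and 1.85 in controls. Controls lay below all 6 mutant libraries. The start sites of these chemokine genes lie 3917 bases apart on GRCm38. Set against the 7 megakaryocyte-defining genes, Ppbp averaged 23.5% of their summed FPKM in Smc3 fl/del Flt3-ITD, 15.2% in Flt3-ITD, 34.8% in Smc3 del/+ and 103% in controls. Tubb1 averaged 1.71%, 2.62%, 2.12% and 13.02% in the same order of groups, and Alox12 6.05%, 1.51%, 2.30% and 11.8%. These 3 genes were lower relative to the lineage sum in every mutant group, with no overlap with controls. Pf4 averaged 428%, 87.2%, 230.4% and 206%, the first a mean of 117% and 738% in the 2 libraries; it overlapped controls in Smc3 fl/del Flt3-ITD, was lower in Flt3-ITD and was higher in Smc3 del/+. F2rl2 averaged 35.9%, 7.99%, 20.2% and 14.3%, higher than controls in both groups with an Smc3 deletion and lower in Flt3-ITD. Selp averaged 44.8%, 28.5%, 8.46% and 11.6% and Thbs1 190.1%, 143%, 24.7% and 48.0%, with 306% and 74.3% in the Smc3 fl/del Flt3-ITD libraries. Both were higher than controls in the groups with Flt3-ITD and lower in Smc3 del/+. Vwf averaged 15.1%, 4.22%, 9.50% and 10.3%, Treml1 4.49%, 1.73%, 9.89% and 6.80%, and Rab27b 15.4%, 3.93%, 9.98% and 8.40%. Each was lower than controls in Flt3-ITD. Vwf and Treml1 overlapped controls in both groups with an Smc3 deletion. Rab27b overlapped them in Smc3 fl/del Flt3-ITD and was higher in Smc3 del/+. These ratios are descriptions of 2 libraries a group, and the share of all genes without overlap on this ratio was not computed.

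**Figure D3:**
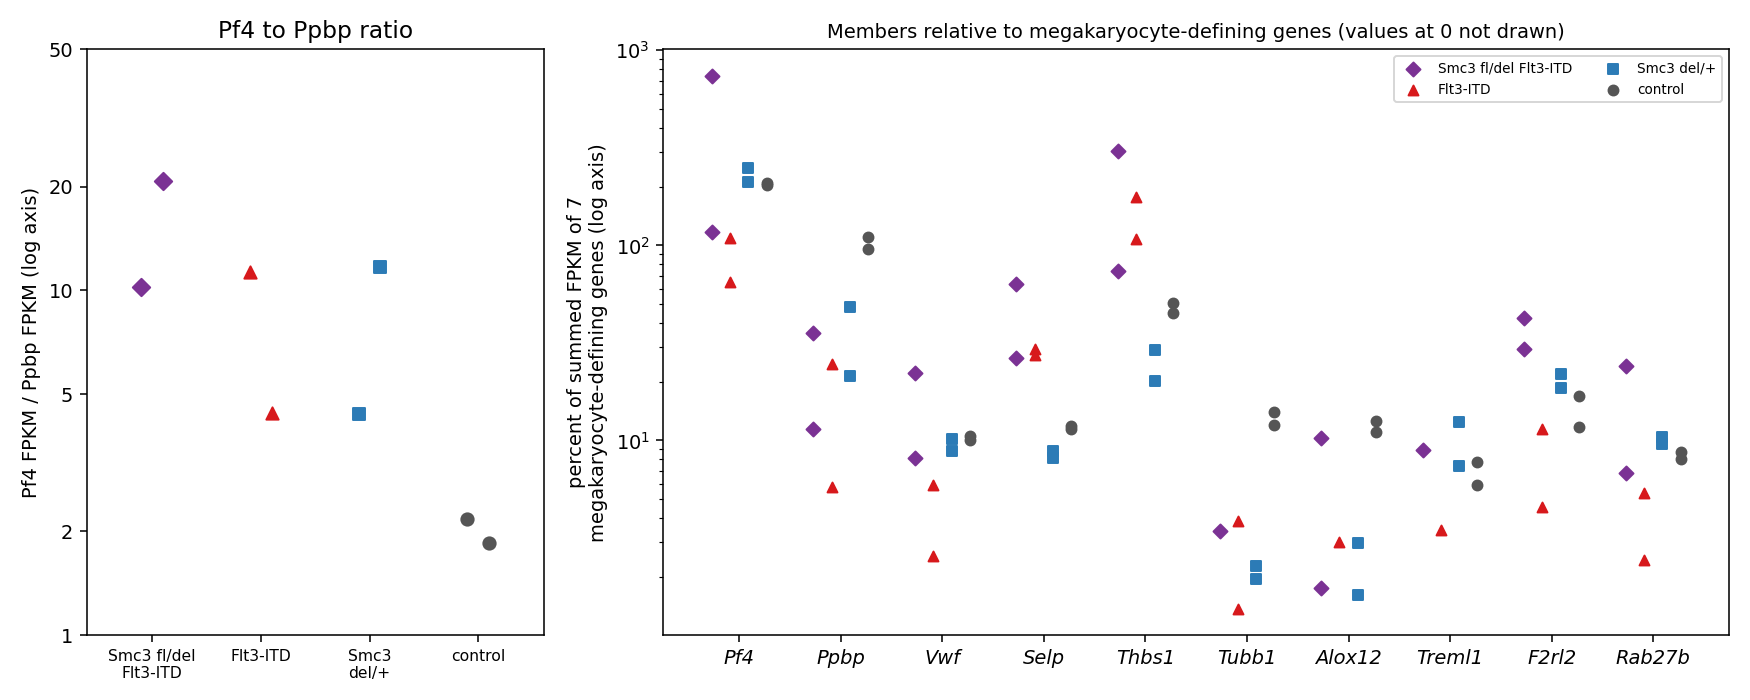
Left, ratio of Pf4 to Ppbp FPKM (log axis); right, each member as a percent of the summed FPKM of 7 megakaryocyte-defining genes in the same library (log axis, values at 0 not drawn), 1 point per library in each of the 4 groups. Ppbp, Tubb1 and Alox12 are lower in all mutant libraries than in controls, whereas the ratio of Pf4 to Ppbp is higher in all of them.

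Close relatives of the members, a set put together after some of their values were seen, included genes that rose where the members fell. Rab27a, the RAB27 form of many secretory cells, rose in Flt3-ITD against controls (1.10 ± 0.117, adjusted p = 0.00209), where Rab27b fell. Alox5, which starts leukotriene synthesis, rose (1.26 ± 0.316, adjusted p = 0.0334), as did the TREM-like receptor Treml2 (0.68 ± 0.153, adjusted p = 0.0238). F2r, which encodes PAR1, gave -0.97 ± 0.321 (adjusted p = 0.0755). Among tubulins, Tubb2a (-2.31 ± 0.340, adjusted p = 0.00568) and Tubb2b (-2.15 ± 0.559, adjusted p = 0.0370) fell with Tubb1; these close copies can share reads, so their separate values are uncertain. Tubb5, a widely used form, gave -0.28 (adjusted p = 0.194). Of these 3 rises, Rab27a alone passed in the table that the authors normalized, at 0.58 (adjusted p = 0.0357); Alox5 and Treml2 gave 0.74 and 0.16. Of the other chemokine genes of the cluster, Cxcl5 reached 1.4998 FPKM in Smc3 fl/del Flt3-ITD replicate 2 and 1.08 FPKM in control replicate 2 and at most 0.314 FPKM elsewhere. Cxcl3 reached at most 0.287 FPKM, and Cxcl1 was listed at 0 in all 8 libraries.

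**Figure D4:**
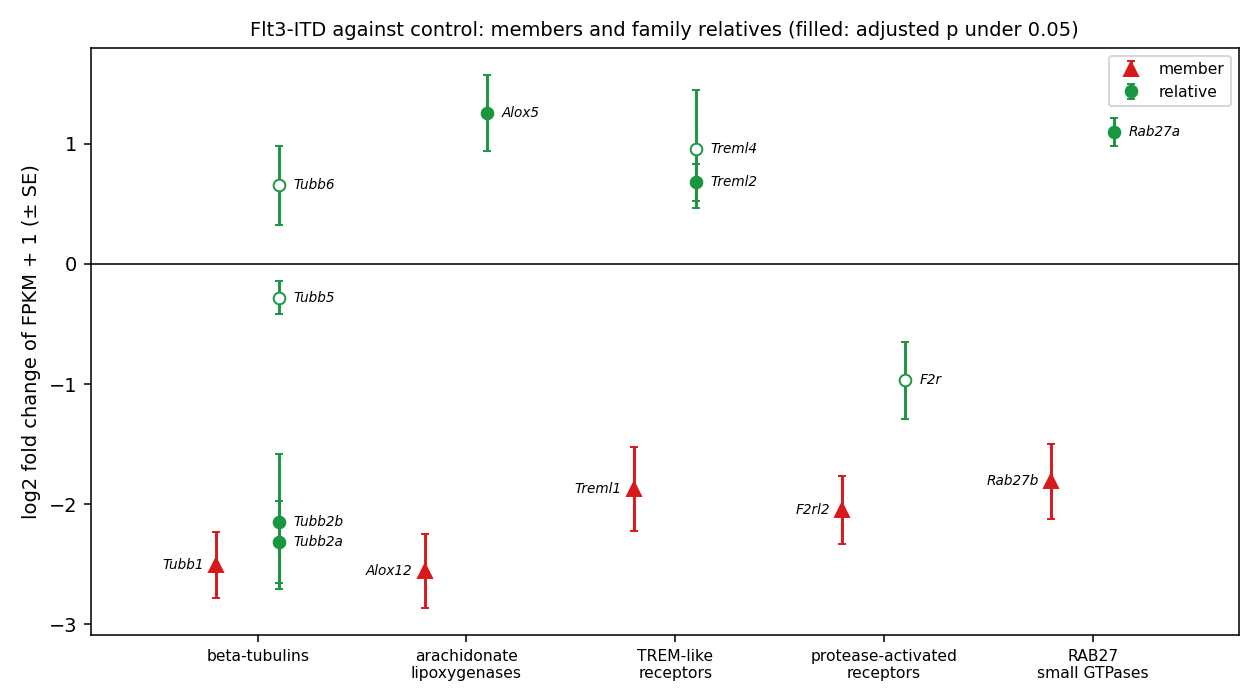
Log2 fold change of Flt3-ITD against control on the log2(FPKM + 1) scale, with limma's SE as bars, for 5 members (triangles) and relatives in the same gene family (circles); filled symbols have an adjusted p under 0.05. Rab27a, Alox5 and Treml2 lie above 0 while the members of their families lie below it.

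The wider pathways did not fall as a whole in this table. The 8 lists of other platelet and megakaryocyte genes held 107 genes, of which 90 were tested. In Flt3-ITD against controls 27 were called higher and 16 lower, in Smc3 fl/del Flt3-ITD against controls 9 higher and 15 lower, and in Smc3 del/+ against controls 0 and 0. Of all genes, 8.51% were called higher and 9.5% lower in the first comparison. The shares were 5.41% and 6.38% in the second, and 0% and 0.00921% in the third. The direction of several lists depends on scaling: in the table that the authors normalized, the median of all genes was -0.58 for Flt3-ITD against controls. There 2 of the 90 were called higher and 30 lower, where 0.986% and 43.1% of all genes were. The following counts are for Flt3-ITD against controls in the table used throughout, with the normalized table's counts beside them. Each is to be read against the shares of all genes just given for that table.

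Platelet receptors and surface genes fell with the members: 5 of 9 were lower and 1 higher, with a median of -1.03 (6 lower and 0 higher when normalized). They included Gp1ba, the receptor for von Willebrand factor (-2.68, adjusted p = 0.00134), Gp5 (-2.37, adjusted p = 0.00418) and Itga2b, the fibrinogen receptor's alpha chain (-1.62, adjusted p = 0.00296). Neither Gp1bb (-0.04, adjusted p = 0.943) nor the integrin gene Itgb3 (-0.005, adjusted p = 0.997) was called. Among 15 megakaryocyte transcription factors 5 fell and 4 rose (7 and 0 when normalized). Gfi1b (-3.86, adjusted p = 0.000519), Zfpm1, the GATA1 cofactor FOG1 (-3.06, adjusted p = 0.000153), and Tal1 (-2.55, adjusted p = 0.00140) fell. Those genes also serve red cell formation. Fli1 was among the rises (0.75, adjusted p = 0.00636).

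Other alpha-granule genes split: of 10, 3 fell and 2 rose (3 and 0 when normalized). Mmrn1, which encodes the factor V-binding protein multimerin, fell (-2.77, adjusted p = 0.00177), as did Clu, clusterin (-1.79, adjusted p = 0.00886), whereas Cd63, a membrane protein of granules and lysosomes in many cells, rose (0.69, adjusted p = 0.0171). Of 18 genes for granule formation and secretion 4 rose and 0 fell (1 and 4 when normalized), Rab27a and the organelle GTPase gene Rab32 (0.93, adjusted p = 0.00552) among the rises. Of 18 proplatelet cytoskeleton genes 6 rose and 3 fell (0 and 5 when normalized); Parvb, an integrin-linked adaptor, fell (-2.71, adjusted p = 0.00206), and Sept5, a septin, rose (1.20, adjusted p = 0.0103).

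Of 7 eicosanoid genes 4 rose and 0 fell (0 and 1 when normalized), among them the prostacyclin receptor gene Ptgir (1.23, adjusted p = 0.0139) and Alox5ap, the partner of 5-lipoxygenase (1.01, adjusted p = 0.0184). Among 7 thrombin receptor and signalling genes 2 rose and 0 fell (0 and 3 when normalized): Rasgrp2 (0.62, adjusted p = 0.0137) and Plcb2 (0.91, adjusted p = 0.0305). In the TREM family 4 of 6 genes rose and 0 fell (1 and 1 when normalized), led by the adaptor gene Tyrobp (1.15, adjusted p = 0.00430) and Trem3 (0.998, adjusted p = 0.00748). Neutrophils and monocytes use many of these genes too, and 8 neutrophil markers summed to 134512 and 164997 FPKM in Smc3 fl/del Flt3-ITD, 219695 and 153600 FPKM in Flt3-ITD, 104235 and 100255 FPKM in Smc3 del/+ and 83364 and 76176 FPKM in controls. Their part in the rises was not tested.

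For Smc3 del/+ against controls 0 of the 90 passed with limma, and 12 were lower and 4 higher at an unadjusted p under 0.05. Of all genes, 2.25% were lower at that p, and 494 of 10854 differed in either direction. The surface receptors had the lowest median, -0.76, against -0.17 for alpha-granule genes and 0.02 for transcription factors. Clec1b gave -1.22 (adjusted p = 0.231), Gp1ba -1.43 (adjusted p = 0.334), Clu -1.76 (adjusted p = 0.334), Gfi1b -0.58 and Zfpm1 -0.61 (adjusted p = 0.764). Fli1, the transcription factor gene with the lowest p, went the other way at 0.46 (adjusted p = 0.735).

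The gene whose pattern was most like each member's was found over the 8 libraries as the smallest root-mean-square difference of centred log2(FPKM + 1) values. For Thbs1 it was Itgb3, the beta-3 integrin chain (difference 0.433), with 19.0 and 4.32 FPKM in Smc3 fl/del Flt3-ITD, 16.2 and 15.0 FPKM in Flt3-ITD, 8.29 and 7.25 FPKM in Smc3 del/+ and 14.9 and 16.4 FPKM in controls. Its low second Smc3 fl/del Flt3-ITD library and low Smc3 del/+ pair follow from picking it for likeness over these libraries, and are no separate evidence. For Alox12 the nearest were Clu (0.370) and Myl9, a myosin light chain (0.378), and for Tubb1 they were Chst3 (0.424) and Clu (0.441). Nrgn was among the nearest to both Rab27b (0.138) and Vwf (0.182). Pf4 was nearest to Pou2af1 (0.360), Ppbp to Vpreb3 (0.591), Selp to Igfbp5 (0.244), Treml1 to Ephx2 (0.176) and F2rl2 to Clybl (0.169). The larger the spread of a member over the libraries, the larger such a difference can be.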

How the data were processed

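The authors deposited FPKM values for the 8 libraries in 2 tables. Per the submitters' processing notes, Cufflinks 2.0.0, TopHat and the mm9 build were used; no roles are given. The table without further normalization was used, and the second, normalized by the authors in a way not given in the sources used here, was an alternative. All per-sample columns matched a sample. The 92 spike-in rows were left out of the tests. FPKM tables hold no read counts, so no counting interval was set. Values were taken as log2(FPKM + 1), and genes averaging 1 FPKM or more were kept. With limma 3.58.1 in R 4.3.3, all 4 groups were fitted at once with a mean-variance trend. This gave Benjamini-Hochberg adjusted p-values over 10854 genes. The code was tested on simulated data, in which changes were planted only in genes of higher level than most members. That run says nothing of recovery at the level of most members. Replicates were individual mice, 2 a group, so an exact two-sided permutation test of 2 against 2 could not go below p = 0.333. Python 3.11.15, pandas 2.3.3 and matplotlib 3.10.9 served for tables and plots.

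Every one of the 10 members is named. From each list the 3 genes with the lowest p in a comparison qualified to be named, and for each member the genes most like it. Some other genes of the lists are not reported here. The members and lists were chosen with earlier results of these data known. The comparison of Flt3-ITD with Smc3 del/+ and the set of relatives were added after values were seen. Promoter sequences are RefSeq's on GRCm38.p6, while the expression values rest on mm9, so no coordinates were carried between them. Alternatives were the normalized table, a pseudocount of 0.1, no filter on low values, centring on each library's median, a replicate block, the 2 groups alone, and leaving out each library.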

Additional observations from a re-analysis of the deposited data

How the results depend on the processing

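The alternatives gave 1589 values for 114 results: 1331 kept their direction and side of the threshold, 170 no longer passed, 82 newly passed and 6 changed sign. The sign changes were Thbs1 in Smc3 fl/del Flt3-ITD against control without replicate 2 of the mutant group (0.0722; -1.98 without its replicate 1) and, for Smc3 del/+ against control in the table the authors normalized, Plcb2 (-0.10), Ptgs1 (-0.11), Rab27a (-0.0497), Rasgrp2 (-0.20) and Stxbp2 (-0.13). That table shifted the median of all genes to -0.67 for Smc3 fl/del Flt3-ITD, -0.58 for Flt3-ITD and -0.38 for Smc3 del/+ against control. It called 10 members lower in Smc3 fl/del Flt3-ITD against control and 9 in Flt3-ITD against control, where 53.4% and 43.1% of all genes were called lower. It called 3 in Smc3 del/+ against control, 1 in Smc3 fl/del Flt3-ITD against Smc3 del/+, 6 in Flt3-ITD against Smc3 del/+ and 2 in the interaction. In the same order, 0.111%, 12%, 11% and 0.175% of all genes were called. Fitting the 2 groups alone called 4 in Smc3 del/+ against control, 1 in Smc3 fl/del Flt3-ITD against control and 8 in Flt3-ITD against Smc3 del/+. Of all genes, 0.203%, 0.378% and 26.1% were called in these fits. A pseudocount of 0.1 called 4 in Smc3 fl/del Flt3-ITD against control, where 5.67% of all genes were called lower. With no filter on low values, 0 were called in Flt3-ITD against Smc3 del/+ and 4 in the averaged effect of Flt3-ITD. Of all genes in those fits, 3.97% and 14.3% were called. Leaving out 1 library at a time gave 0 to 3 calls in Smc3 del/+ against control, 3 to 9 in Flt3-ITD against control, 0 to 4 in Smc3 fl/del Flt3-ITD against Flt3-ITD, 2 to 9 in Smc3 fl/del Flt3-ITD against control, 0 to 5 in Smc3 fl/del Flt3-ITD against Smc3 del/+, 0 to 8 in Flt3-ITD against Smc3 del/+, 0 to 8 in the interaction and 2 to 8 in the averaged effect of Flt3-ITD; where a group kept 1 library, that library was assumed to vary like the others. Without Smc3 fl/del Flt3-ITD replicate 1, which gave the 4 members against Flt3-ITD and the 8 in the interaction, 29.9% and 18.8% of all genes were called. The cause of these shifts was not tested. Deviations of same-numbered libraries correlated across genes at r = -0.113 to 0.0229, and the labels do not say whether a number is shared between groups. With a replicate block 8 members were called in Flt3-ITD against control, 6 in Smc3 fl/del Flt3-ITD against control and 0 in Smc3 del/+ against control. Of all genes, 8.28%, 5.18% and 0.00921% were called lower in these fits. Crossing the numbers in Smc3 fl/del Flt3-ITD, an alternative chosen after seeing the data, called 5 members and 974 genes in all against control (430 higher, 544 lower). With 2 mice a group the spread is poorly known, and in the 25 member values under 1 FPKM small absolute differences set the fold.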

Other observations

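Markers of other cells that a c-Kit selection can hold varied between groups, and their part in the platelet gene levels was not tested. A list of 10 stem cell genes (Slamf1, Procr, Mecom, Hlf, Fgd5, Ctnnal1, Mllt3, Hoxb5, Meis1 and Ly6a) summed to 18.5 and 27.9 FPKM in Smc3 fl/del Flt3-ITD, 17.7 and 23.3 FPKM in Flt3-ITD, 32.6 and 32.8 FPKM in Smc3 del/+ and 35.6 and 35.1 FPKM in controls. The sums of both groups with Flt3-ITD lay below the others, and Mllt3 made up much of this gap in Flt3-ITD. Mllt3 stood at 2.99 and 10.2 FPKM in Smc3 fl/del Flt3-ITD and 2.03 and 1.86 FPKM in Flt3-ITD. It stood at 12.7 and 11.7 FPKM in Smc3 del/+ and 15.3 and 12.7 FPKM in controls. Ly6a overlapped between groups, with 6.09 and 4.43 FPKM in Flt3-ITD and 2.29 and 5.66 FPKM in controls. The 9 mast cell and basophil genes summed to 118 and 121 FPKM in Smc3 fl/del Flt3-ITD, 117 and 111 FPKM in Flt3-ITD, 177 and 185 FPKM in Smc3 del/+ and 125 and 132 FPKM in controls. Smc3 del/+ was the high group here, and 3 of these genes, the mature mast cell proteases Mcpt4, Cma1 and Tpsb2, were listed at 0 in every library. The macrophage list, which includes the complement gene C1qa, summed to 44.1 and 65.6 FPKM in Smc3 fl/del Flt3-ITD, 56.0 and 53.6 FPKM in Flt3-ITD, 71.4 and 94.5 FPKM in Smc3 del/+ and 72.2 and 82.0 FPKM in controls.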
